A study of Mus musculus with 10 samples.

Results

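The 10 genes described here mark and build the inhibitory neurons of the midbrain, which release the transmitter GABA: Gad1, Gad2, Slc32a1, Gata2, Gata3, Tal1, Tal2, Sox14, Helt and Zfpm1. They were taken by symbol from a table of 30935 gene IDs, all 10 were found, and all 10 were among the 15288 genes with enough counts to be tested. RNA-seq libraries came from whole midbrains of mice at embryonic day 14.5, in 2 groups of 5. Wild-type embryos were Rbfox1 +/+ (libraries 1, 2, 4, 5 and 6). Deletion embryos were Rbfox1 ΔHAR.321/ΔHAR.321, homozygous for the loss of the mouse counterpart of HAR.321, a human accelerated region named with the Rbfox1 gene (libraries 2, 3, 4, 5 and 6). Human accelerated regions are conserved stretches of the genome that changed fast on the human lineage, and Rbfox1 encodes a splicing regulator of neurons. The labels describe the samples as independent, while strain, sex, litter and the number of founder lines were not given in the sources used here. The question was whether the genes of GABAergic neurons differed in level without the element.

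GABAergic neurons of the midbrain arise from ventricular progenitors that express Helt. As the cells leave the cell cycle they switch on the zinc finger factors Gata2 and Gata3 and the basic helix-loop-helix factors Tal1 and Tal2, and without Gata2 or Tal2 the mouse midbrain makes neurons with glutamatergic features in their place. The enzymes and transporter of the transmitter follow in the young neuron. Gata2, Tal1 and Zfpm1 are also textbook genes of blood and vessel development, so that a whole midbrain can hold their RNA from more than 1 tissue. In such bulk samples, fewer cells of a type and less RNA per cell cannot be told apart.

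Total counts ran from 16246892 to 20255728 per library. Genes that define the midbrain were present in both groups: the homeobox gene En1 stood at 72.4 ± 13.7 CPM (counts divided by the library's total and its TMM scaling factor) in wild-type and 64.8 ± 8.56 CPM in deletion, and Otx2 at 197 ± 17.1 and 176 ± 36.1 CPM (SD, n = 5 each). Of the 9 hindbrain and spinal markers, Hoxb2, Hoxa3, Hoxb3 and Hoxa4 had 0 in each library and the other 5 had counts in some libraries or all, where 3 counts would be 0.185 CPM in the smallest library. Over all genes, 9 of 15288 passed edgeR's quasi-likelihood test at a Benjamini-Hochberg adjusted p under 0.05, which is 0.0589%, and that count ran from 0 to 357 when 1 library was left out (357 without deletion 4, 88 without wild-type 2, 3 without deletion 3 or deletion 6, 1 without wild-type 4 and 0 without any other). The slope of a library's log2 CPM, relative to the mean of all libraries, on log2 transcript length ran from -0.059 to -0.012 among wild-type libraries and from -0.05 to 0.099 among deletion libraries. Deletion 2, 3, 5 and 6 stood at 0.041, 0.032, 0.048 and 0.099, above every wild-type library, and deletion 4 at -0.050. The length slope thus went largely with the group.

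None of the 10 GABAergic neuron genes passed the test between the groups, against the 0.0589% called over all genes. None had an unadjusted p under 0.05 in edgeR either, where 10.5% of all genes did, and none passed in DESeq2 (2.36% called, none of the 10 with an unadjusted p under 0.05) or limma-voom (0.0589% called, likewise none). The DESeq2 share is of the 9953 genes to which it gave an adjusted p, and Helt was not among them. The groups overlapped for each of the 10 genes, while they did not overlap for 2.49% of all genes. Of the 10, 8 were higher in deletion and 2 lower, and their log2 fold changes had a median of 0.04 beside -0.0024 over all genes, and the log2 fold changes lay between -0.11 and 0.14. For Gad1 the 95% interval spanned 0.940-fold to 1.12-fold, whereas those of Tal2 and Helt spanned 0.676-fold to 1.32-fold and 0.717-fold to 1.40-fold. Differences within those wider bounds are thus not excluded by these libraries, and the smallest detectable difference was not computed.

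**Figure D1:**
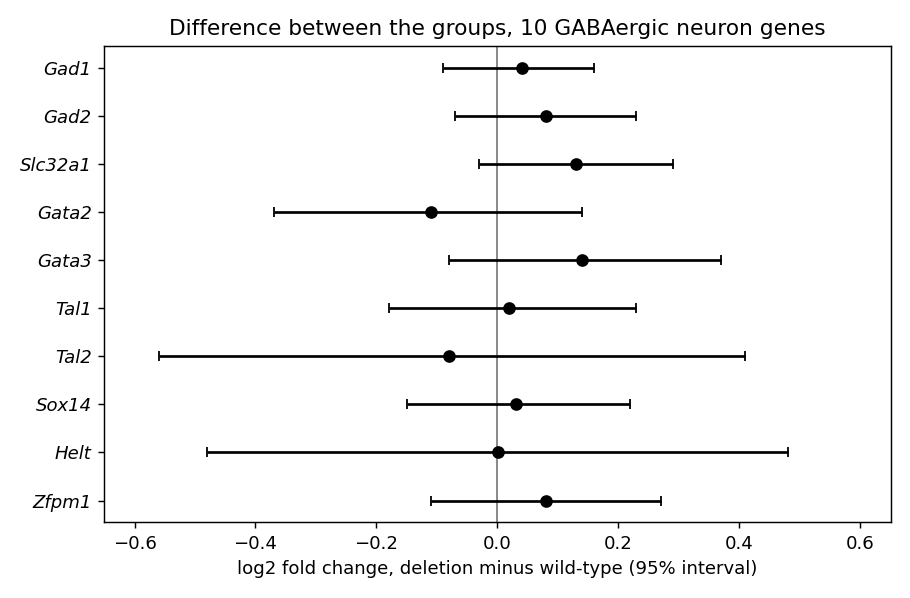
Log2 fold change of each GABAergic neuron gene, deletion minus wild-type, with its 95% interval from edgeR (5 libraries per group). Every interval spans 0, and those of Tal2 and Helt are the widest.

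The levels of the genes differed among themselves by up to 13.3-fold when set per kilobase of the longest annotated transcript. In wild-type midbrain Gad1 was the most abundant at 52.7 ± 2.57 CPM per kilobase, and no wild-type library of Sox14 (41.7 ± 3.13) reached the lowest one of Gad1. Sox14, Tal2 (34.0 ± 8.52), Tal1 (32.9 ± 3.60), Slc32a1 (32.1 ± 3.76), Gad2 (27.5 ± 0.789) and Gata3 (24.5 ± 3.26 CPM per kilobase) formed a run in which each gene's range over the 5 libraries overlapped that of the next. Zfpm1 (9.30 ± 0.728), Gata2 (7.26 ± 0.793) and Helt (3.97 ± 0.937 CPM per kilobase) followed, each without overlap with its neighbour. In the deletion group Gad1 stood at 54.1 ± 3.63 and Helt at 3.97 ± 1.58 CPM per kilobase.

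Of the transmitter genes, Gad1 encodes GAD67, the enzyme that makes most of the GABA in a neuron's cell body. Gad1 stood at 186, 204, 192, 179 and 188 CPM in wild-type 1, 2, 4, 5 and 6, and at 186, 190, 185, 196 and 217 CPM in deletion 2, 3, 4, 5 and 6. Only deletion 6 lay above the highest wild-type library, and the other 4 fell within the wild-type range. The group means were 190 ± 9.25 and 195 ± 13.1 CPM (log2 fold change 0.04, SE 0.06, edgeR adjusted p = 0.884). Gad1 had the smallest spread of the 10 genes, with a coefficient of variation of 5.72% over all libraries.

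Gad2 encodes GAD65, the enzyme bound to vesicles at nerve endings. Its wild-type libraries were close together at 151, 164, 156, 160 and 159 CPM. The deletion libraries were spread on both sides of them, at 176, 160, 136, 171 and 193 CPM in deletion 2, 3, 4, 5 and 6. Deletion 4 was the lowest of all 10 libraries and deletion 6 the highest, so the coefficient of variation was 2.87% among wild-type and 12.7% among deletion libraries. The group means were 158 ± 4.53 and 167 ± 21.2 CPM (log2 fold change 0.08, SE 0.07, edgeR adjusted p = 0.769). Without deletion 4 the log2 fold change was 0.15 (SE 0.0561, adjusted p = 0.176). With all libraries and the length trend removed it was 0.02 (SE 0.0647, edgeR adjusted p = 0.953). The transcript of Gad2, at 5.74 kilobases, was the longest of the 10 genes. Per kilobase and within a library, Gad1 stood at 1.92 ± 0.0796 times Gad2 in wild-type and 1.88 ± 0.186 times in deletion (SD, n = 5), with the highest ratio, 2.18, in deletion 4.

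Slc32a1 encodes VGAT, the transporter that loads GABA and glycine into vesicles. It stood at 76.8, 98.9, 87.5, 83.4 and 102 CPM in the wild-type libraries and at 99.2, 99.4, 102, 85.2 and 105 CPM in the deletion libraries. Deletion 2, 3, 4 and 6 exceeded the mean of wild-type and deletion 5 did not, with group means of 89.7 ± 10.5 and 98.2 ± 7.61 CPM (log2 fold change 0.13, SE 0.08, 95% interval -0.03 to 0.29). Its p was the smallest of the 10 genes and did not pass (edgeR adjusted p = 0.606). The long noncoding RNA gene Gm14204 overlaps Slc32a1 and had 960 to 1303 counts of its own per library, and without a stated strand the reads of such a pair cannot be told apart.

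**Figure D2:**
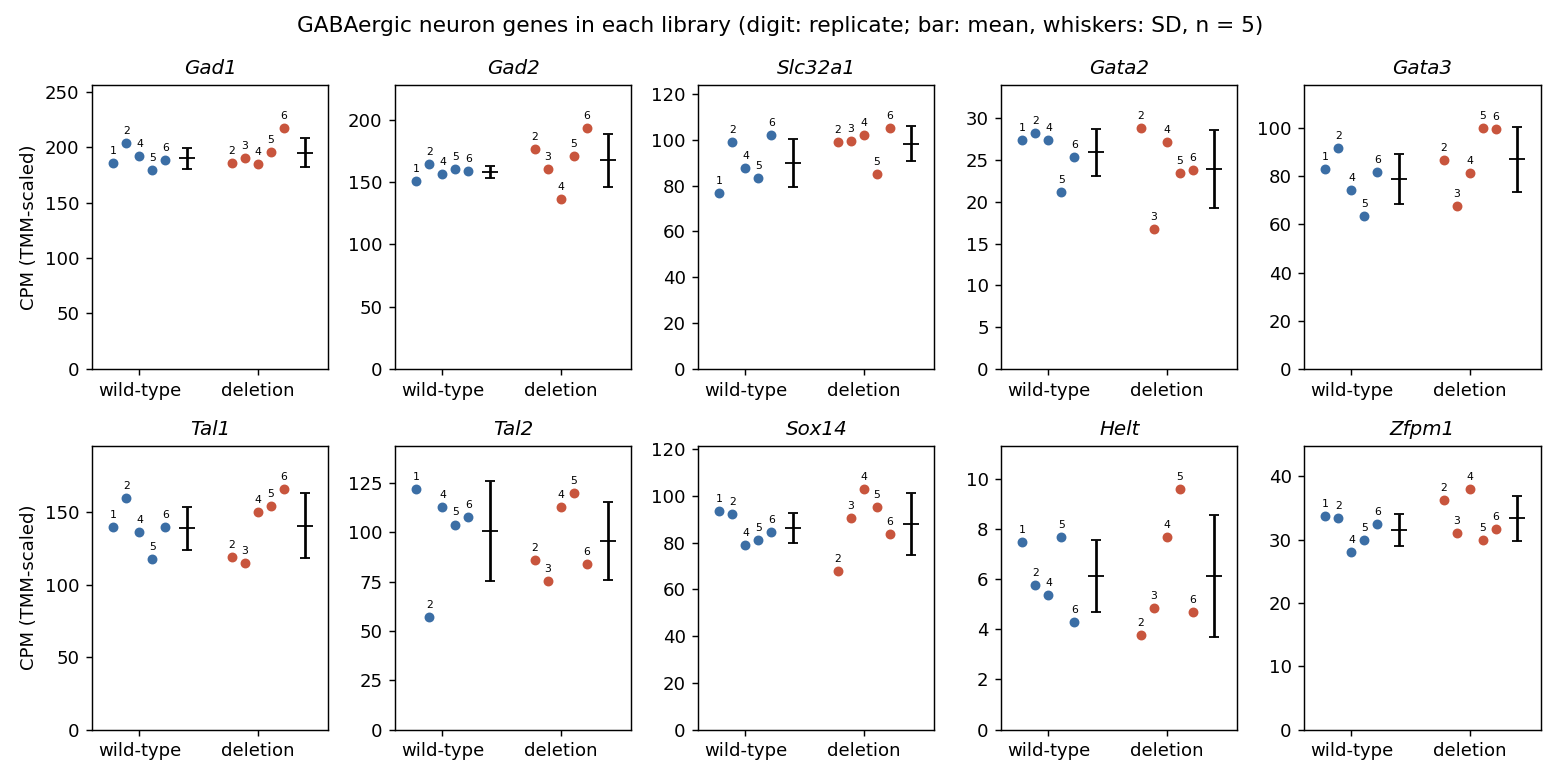
CPM of the 10 GABAergic neuron genes in each library, wild-type in blue and deletion in red, each point with its replicate number and each group with its mean and SD (n = 5). The groups overlap for each of the 10 genes, wild-type 2 is low for Tal2 at 57.2 CPM, and the deletion libraries of Gad2 lie on both sides of the wild-type ones.

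Of the factors that select the GABAergic fate, Gata2 acts first in postmitotic midbrain cells. It stood at 27.4, 28.2, 27.4, 21.2 and 25.4 CPM in wild-type and at 28.8, 16.7, 27.1, 23.4 and 23.8 CPM in deletion. Deletion 3 was the lowest and deletion 2 the highest of all libraries, and the means of 25.9 ± 2.83 and 24.0 ± 4.64 CPM differed by -0.11 on the log2 scale (SE 0.12, edgeR adjusted p = 0.816). Gata3, its close relative, which serotonergic neurons of the hindbrain need, stood at 83.0, 91.5, 74.2, 63.6 and 81.6 CPM in wild-type and 86.8, 67.7, 81.2, 99.9 and 99.6 CPM in deletion. Deletion 5 and deletion 6 were above every wild-type library and deletion 3 was near the wild-type minimum. Its means of 78.8 ± 10.5 and 87.0 ± 13.5 CPM differed by 0.14 on the log2 scale (SE 0.11, 95% interval -0.08 to 0.37, edgeR adjusted p = 0.686). The difference was 0.07 without wild-type 5, 0.08 without deletion 5 and 0.09 without deletion 6, and 0.22 without deletion 3. Per kilobase, the ratio of Gata3 to Gata2 within a library was 3.37 ± 0.235 in wild-type and 4.11 ± 0.711 in deletion, where deletion 3, 5 and 6 stood at 4.50, 4.73 and 4.65 and deletion 2 and 4 at 3.35 and 3.32. The ratio was computed with the group values known and is given with no test.

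Tal1, also called Scl, stood at 140, 160, 136, 118 and 140 CPM in wild-type and 119, 115, 150, 154 and 166 CPM in deletion. The deletion libraries fell into 2 low ones (2 and 3) and 3 high ones (4, 5 and 6) around nearly the same mean, 139 ± 15.2 against 141 ± 22.3 CPM (log2 fold change 0.02, SE 0.10, edgeR adjusted p = 0.968). Tal2, which the mouse tectum needs for its GABAergic neurons, stood at 122, 57.2, 113, 104 and 108 CPM in wild-type and 85.8, 75.3, 113, 120 and 83.8 CPM in deletion. Wild-type 2 stood far below the other 4 wild-type libraries, and the raw counts were 930 there against 1995 to 2344 in the others. The means were 101 ± 25.3 and 95.6 ± 19.6 CPM (log2 fold change -0.08, SE 0.21, edgeR adjusted p = 0.944). Without wild-type 2 the log2 fold change was -0.23 (SE 0.121, adjusted p = 0.441). In that library Tal1 was at its wild-type maximum, and the ratio of Tal1 to Tal2 per kilobase was 1.98, against 0.795 to 0.914 in the other wild-type libraries.

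Zfpm1 encodes FOG1, a cofactor that binds GATA factors. It ran from 28.0 to 33.8 CPM in wild-type and from 29.9 to 38.0 CPM in deletion, with deletion 4 and deletion 2 (36.3 CPM) above all wild-type libraries (log2 fold change 0.08, SE 0.09, edgeR adjusted p = 0.818). Sox14 marks GABAergic neurons of the midbrain and diencephalon, among them those of the pretectum. It ran from 79.1 to 93.4 CPM in wild-type and from 67.9 in deletion 2 to 103 CPM in deletion 4, so that both extremes were deletion libraries (log2 fold change 0.03, SE 0.09, edgeR adjusted p = 0.944). Helt, the progenitor factor, was the lowest of the 10 genes and the most variable, with 61 to 180 raw counts per library. It stood at 7.49, 5.78, 5.36, 7.68 and 4.30 CPM in wild-type and 3.76, 4.86, 7.69, 9.59 and 4.68 CPM in deletion. The highest and the lowest library were deletion 5 and deletion 2, while the means were 6.12 ± 1.44 and 6.11 ± 2.44 CPM (log2 fold change 0.0017, SE 0.23, edgeR adjusted p = 0.999).

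For each of the 10 genes the group means differed by less than the larger of the group SDs. Deletion 6 was highest for 4 of the 10 genes, and deletion 5 stood among the 3 highest libraries for 7. Wild-type 5 stood among the 3 lowest for 7, and deletion 3 was never among the 3 highest. The ratio of the highest to the lowest of all 10 libraries was 1.21 for Gad1, 2.13 for Tal2 and 2.55 for Helt.

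**Figure D3:**
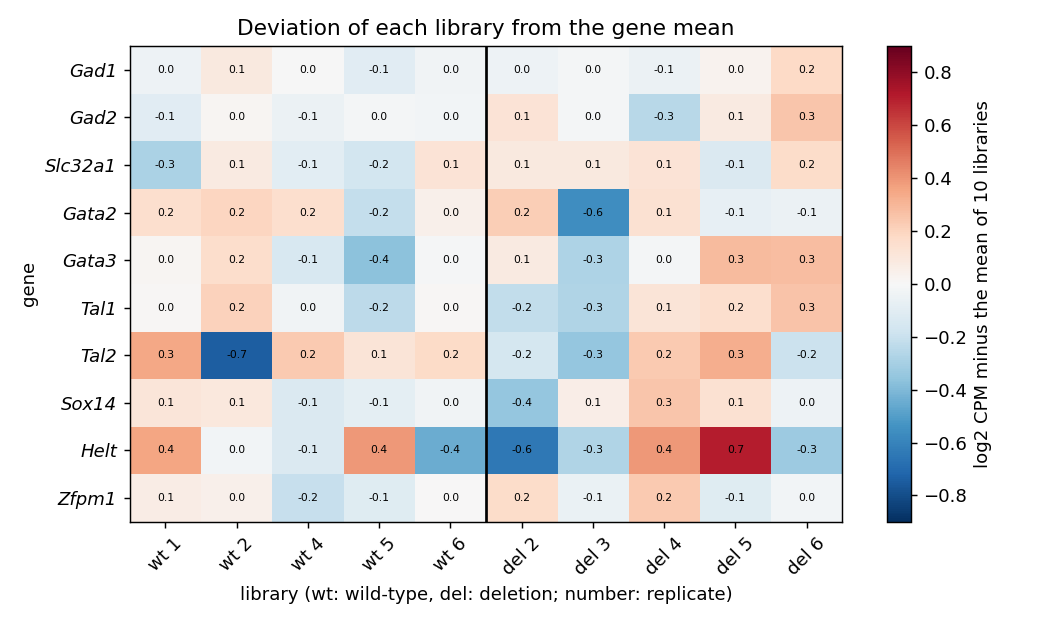
Log2 CPM of each GABAergic neuron gene in each library minus its mean over the 10 libraries, with genes in rows and libraries in columns (wt is wild-type, del is deletion, and the line separates the groups). Both signs occur in each group for each gene, and the spread is smallest for Gad1 and largest for Helt.

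Across all 10 libraries, with each group's mean removed, Gata3 and Tal1 had the highest correlation of any pair of the 10 genes. Pearson's r was 0.83 and Spearman's rho 0.82 over 10 libraries (exact permutation within groups, two-sided, p = 0.00694 and 0.0110), r was 0.97 among wild-type and 0.76 among deletion libraries, and it was 0.63 without the 2 libraries farthest from the median of Gata3. That rank depended on the libraries: with the 2 farthest left out for each pair, 6 pairs had a higher r, among them Tal2 with Sox14 and Tal2 with Helt (0.74 each), and among deletion libraries Tal2 with Helt (0.89) and Sox14 with Helt (0.82) were higher. Of 14224 genes with a mean of at least 1 CPM, 53 (0.373%) followed Gata3 more closely than Tal1 did. In all 45 pairs were compared, and neither this p nor any other passed after Benjamini-Hochberg adjustment over the pairs (adjusted p = 0.312 for r and 0.494 for rho; 3 pairs had an unadjusted p under 0.05 for r). The next pair was Gad1 and Tal1 (r = 0.75, rho = 0.68, permutation p = 0.0174 and 0.0455, adjusted p = 0.335 and 0.580; r = 0.50 without the 2 farthest libraries). The pair Slc32a1 and Helt went in opposite directions (r = -0.68, rho = -0.50, permutation p = 0.0224 and 0.114, adjusted p = 0.335 and 0.733; r = -0.40 without the 2 farthest libraries). Signs were mixed over the whole set, with 28 pairs above 0 and 17 below.

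**Figure D4:**
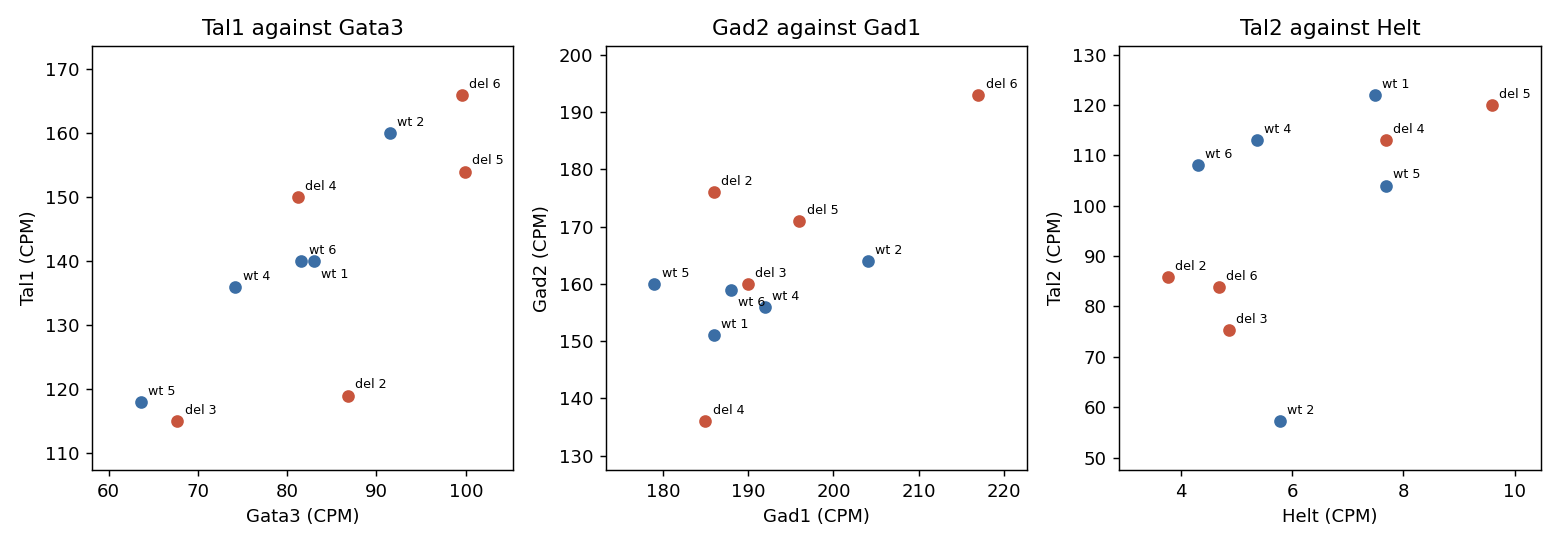
CPM of 3 pairs of genes, each point a library (wild-type in blue, deletion in red, axes not starting at 0): Tal1 against Gata3, Gad2 against Gad1, and Tal2 against Helt. Wild-type and deletion libraries mix along the Gata3 and Tal1 axis, where deletion 2 has less Tal1 than the libraries with as much Gata3, and wild-type 2 stands alone at the bottom of the Tal2 axis.

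Outside the set, the genes whose levels were most like those of Gata3 over the 10 libraries were L3mbtl3, Zfp608 and Slc39a14 (Pearson's r = 0.96, 0.96 and 0.95, Spearman's rho = 0.94, 0.93 and 0.94, and r = 0.96, 0.97 and 0.91 without the 2 farthest libraries). Those most like Gad1 were Prkcb, a protein kinase C gene, Arhgef12, a guanine nucleotide exchange factor gene, and Ppp1r7, a regulator of protein phosphatase 1 (r = 0.95 for each, rho = 0.90, 0.96 and 0.88, and r = 0.85, 0.88 and 0.76 without the 2 farthest libraries). These 6 genes were chosen for their likeness among 14224, so their values are a description with no test. The 95th percentile of r over those genes was 0.60 for Gata3 and 0.65 for Gad1.

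The starts of the genes were searched for the letters of a GATA site and of 2 E-boxes, the sites bound by basic helix-loop-helix factors, in the 250 bases before the RefSeq start farthest upstream (build GRCm38.p6, another build than the mm39 of the counts). The motifs were GATAA for the GATA site, with CAGCTG as one E-box and CAGATG as the other, on either strand, and none overlapped another. GATAA was found in 2 of the 10 windows, CAGCTG in 0 and CAGATG in 1. Over 32851 windows of all genes the shares were 22.6%, 13.0% and 14.4%. Those windows took in every listed start of a gene and not only the one farthest upstream, so the sets of starts are not alike. The 4 windows below are shown because Gata3 and Tal1 had the highest correlation over all libraries and because Tal1, Slc32a1 and Gad2 held the 3 matches, at 205, 214 and 76 bases before the start, where capitals mark the matched letters.
Gata3, chr2:9878601-9878850, minus strand: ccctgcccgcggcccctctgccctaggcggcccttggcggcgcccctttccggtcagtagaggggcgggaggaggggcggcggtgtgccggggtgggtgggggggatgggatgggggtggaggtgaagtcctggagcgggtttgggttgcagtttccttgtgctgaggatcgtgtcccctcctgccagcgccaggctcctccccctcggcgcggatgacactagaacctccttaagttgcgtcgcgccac
Tal1, chr4:115056176-115056425, plus strand: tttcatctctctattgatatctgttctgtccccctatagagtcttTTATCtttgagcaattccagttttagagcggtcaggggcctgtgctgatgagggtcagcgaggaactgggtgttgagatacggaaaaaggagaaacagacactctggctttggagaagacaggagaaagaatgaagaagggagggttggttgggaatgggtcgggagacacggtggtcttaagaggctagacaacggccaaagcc
Slc32a1, chr2:158610508-158610757, plus strand: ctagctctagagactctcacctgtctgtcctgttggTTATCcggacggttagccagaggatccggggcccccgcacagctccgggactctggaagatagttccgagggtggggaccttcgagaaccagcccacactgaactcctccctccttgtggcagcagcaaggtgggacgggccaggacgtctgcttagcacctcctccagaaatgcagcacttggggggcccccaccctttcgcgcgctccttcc
Gad2, chr2:22622077-22622326, plus strand: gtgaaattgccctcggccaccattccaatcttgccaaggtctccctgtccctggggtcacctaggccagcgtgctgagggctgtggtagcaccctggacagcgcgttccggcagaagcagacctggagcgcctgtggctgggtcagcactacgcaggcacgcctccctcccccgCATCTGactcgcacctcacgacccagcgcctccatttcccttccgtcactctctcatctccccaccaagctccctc
The window of Gata3 held none of the 3 motifs, which says only that these letters do not occur in it.

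Other regulators of the lineage and partners of the GATA and Tal factors were read as a list of 16 genes, all tested, of which 10 were higher and 6 lower with none passing in edgeR (median log2 fold change 0.04 beside -0.0024 over all genes; 0.0589% called over all genes). Six3, a homeobox gene, had the smallest p of the list, at 50.2 ± 8.98 against 60.2 ± 7.35 CPM (log2 fold change 0.26, SE 0.11, edgeR adjusted p = 0.411), with 4 of 5 deletion libraries over the mean of wild-type. The LIM homeobox gene Lhx1 (log2 fold change 0.12, SE 0.07, adjusted p = 0.607) and the homeobox gene Nkx6-1 (0.23, SE 0.16, adjusted p = 0.656) followed. Zfpm2, which encodes FOG2, differed by 0.10 (SE 0.07) on the log2 scale, and Ldb1, a scaffold of complexes with LIM, GATA and Tal proteins, by -0.06 (SE 0.07).

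Genes that take up, supply or break down GABA were measured as 7 genes, of which 6 were tested and none passed in edgeR (4 higher and 2 lower). The median log2 fold change was 0.11, and 0.04 with the length trend or 0.03 with the length and GC trend removed. Slc38a1, a glutamine transporter, ran from 301 to 328 CPM in wild-type and from 327 to 372 CPM in deletion, so the groups overlapped, with 5 of 5 deletion libraries over the mean of wild-type (log2 fold change 0.12, SE 0.06, edgeR adjusted p = 0.500). Slc6a11, the transporter GAT3 of glia, followed at 0.14 (SE 0.11, adjusted p = 0.731). Slc6a13 was not tested, with 0 to 18 counts per library. Of 9 peptides, calcium-binding proteins and other markers of GABAergic subtypes, 4 were higher and 5 lower with none passing. Their median was -0.07, and its sign turned to 0.08 with the length trend or 0.07 with the length and GC trend removed. Nos1, the neuronal nitric oxide synthase, had the smallest p, at 18.5 ± 3.61 against 22.7 ± 2.55 CPM (log2 fold change 0.30, SE 0.12, adjusted p = 0.375), followed by the neuropeptide gene Npy (-0.26, SE 0.17, adjusted p = 0.638) and the calbindin gene Calb1 (0.17, SE 0.14, adjusted p = 0.736).

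GABAergic markers of other brain regions were low. The forebrain list of 12 genes summed to 10.1 to 22.2 CPM in wild-type and 9.93 to 23.1 CPM in deletion, beside 848 to 935 and 850 to 1008 CPM for the 10 GABAergic neuron genes. The sums are of unlike genes: the 10 include the transmitter genes Gad1, Gad2 and Slc32a1 (wild-type means of 190, 158 and 89.7 CPM), and the forebrain list holds none. Of its defining genes, Dlx1 had 0 to 6 counts per library, Dlx5 0 to 12 and Lhx6 0 to 10, Lhx8 had 0 in all libraries, and 3 of the 12 were tested, with none passing, among them Sp9 (log2 fold change -0.09, SE 0.34) and Sp8 (-0.01, SE 0.28). Sp9, which is also a gene of other neural regions, made up most of that sum and divided the libraries of both groups alike, at 12.9, 14.2, 15.1 and 13.2 CPM in wild-type 5, wild-type 6, deletion 2 and deletion 3 and at 5.59 to 9.06 CPM in the other 6. In wild-type 5 and deletion 3 the levels of Gata3 (63.6 and 67.7 CPM) and Tal1 (118 and 115 CPM) were low, while wild-type 6 stood near the wild-type mean for both and deletion 2 was low for Tal1 alone. Tcf7l2, a gene of the thalamus, pretectum and tectum, was lowest in wild-type 5, wild-type 6 and deletion 3, at 274, 311 and 312 CPM, and stood at 599 CPM in deletion 2. The part of the dissected region in the levels of Gata3 and Tal1 was not tested. Of the 9 hindbrain and spinal markers, Pax8 alone was tested (0.13, SE 0.19), Ptf1a had 0 to 8 counts per library, Hoxb4 0 to 3, Lbx1 0 to 64 and Hoxa2 0 to 15. Lbx1 and Hoxa2 were both highest in deletion 3, at 3.58 and 0.838 CPM. The list summed to 5.78 to 10.3 CPM in wild-type and 6.88 to 10.5 CPM in deletion.

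Neurons of the alternative fate were measured beside them. Of 8 markers of glutamatergic neurons, 7 were tested, 1 higher and 6 lower, with none passing in edgeR and a median log2 fold change of -0.02. Slc17a6, the vesicular glutamate transporter VGLUT2, stood at 251 ± 14.2 CPM in wild-type and 251 ± 25.3 CPM in deletion (log2 fold change -0.0045, SE 0.07). Per kilobase, Gad1 stood at 0.869 ± 0.0602 times Slc17a6 in wild-type and 0.896 ± 0.0453 times in deletion, and Slc32a1 at 0.530 ± 0.0791 and 0.585 ± 0.0793 times. The smallest p of the list was that of Pou4f1, the factor BRN3A (-0.13, SE 0.13, adjusted p = 0.790), and Lhx9 (-0.04, SE 0.09) and Tcf7l2 (0.11, SE 0.26) came next. Neural progenitor markers were lower in 8 of 9 cases with none passing (median -0.10), led by Sox2 (-0.23, SE 0.10, adjusted p = 0.415), and summed to 1088 to 1486 CPM in wild-type and 1029 to 1496 CPM in deletion. The 2 libraries with the lowest sums were wild-type 2 (1088 CPM) and deletion 6 (1029 CPM), which were also the 2 highest for Gad1 and for Tal1. The part of progenitor content in these levels was not tested. General neuron markers had a median of 0.02 (6 higher and 3 lower; -0.01 with the length trend removed), with Syt1 having the smallest p (0.16, SE 0.07, adjusted p = 0.441).

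**Figure D5:**
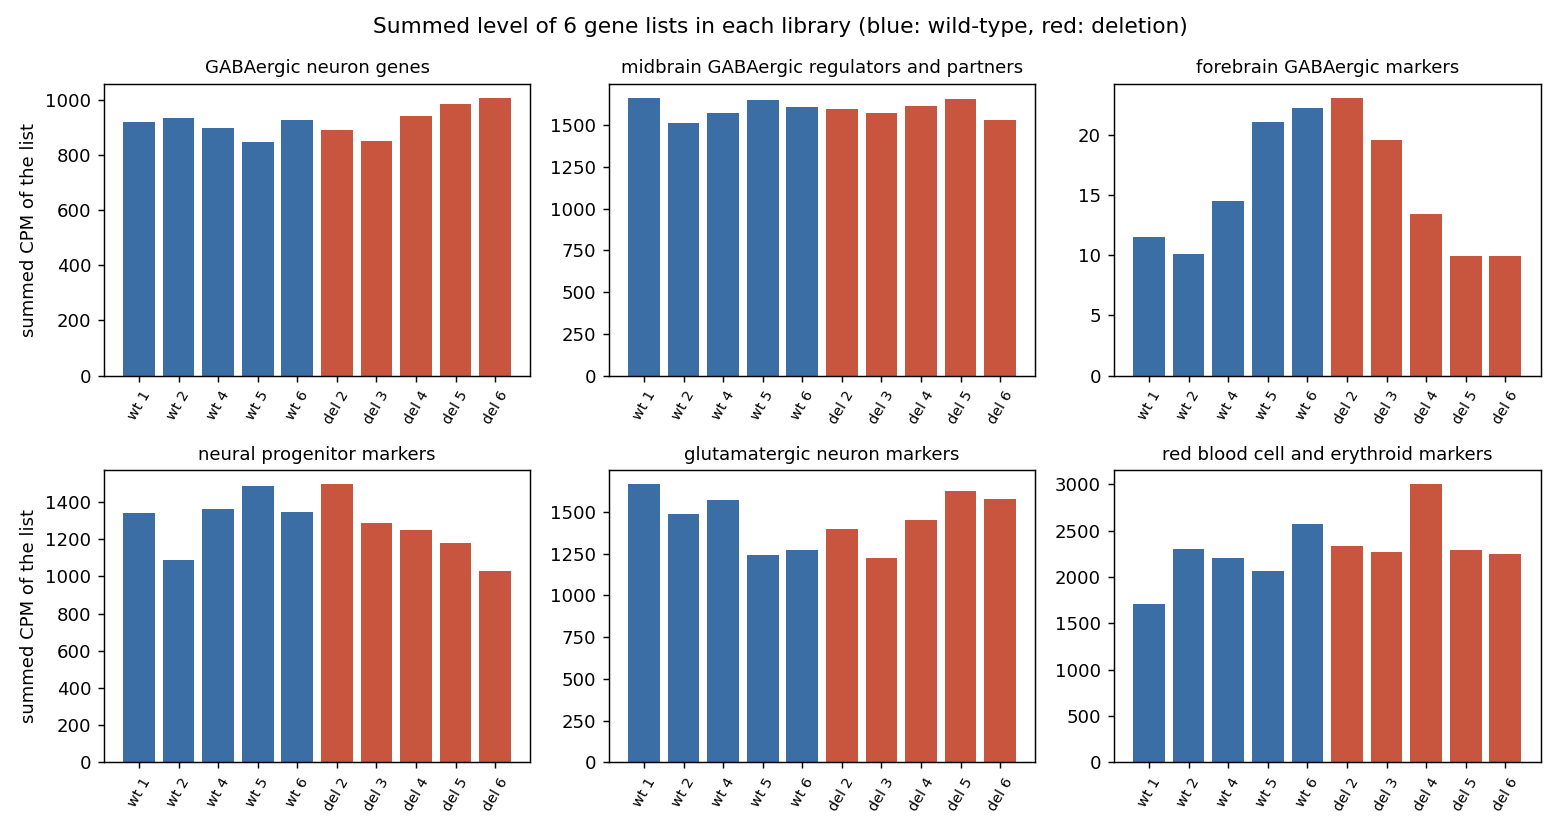
Summed CPM of 6 gene lists in each library (bars, axes from 0, wild-type in blue, deletion in red). The 10 GABAergic neuron genes sum to between 848 and 1008 CPM, and the forebrain GABAergic markers to between 9.93 and 23.1 CPM, highest in wild-type 5, wild-type 6, deletion 2 and deletion 3.

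Blood and vessel RNA was examined because Gata2, Tal1 and Zfpm1 are shared with those tissues. Of 15 red blood cell and erythroid markers, 14 matched an ID and 9 were tested. All 9 were higher in the deletion group with none passing, with a median of 0.21, which was 0.38 with the length trend or 0.39 with the length and GC trend removed. The list summed to 1711 to 2568 CPM in wild-type and 2246 to 3002 CPM in deletion, nearly all of it globin RNA such as Hbb-bs (468 ± 72.6 and 513 ± 65.4 CPM). Alas2, the haem synthesis enzyme of red cells, had the smallest p (0.47, SE 0.16, adjusted p = 0.228), followed by Hba-a2 (0.25, SE 0.12) and Hba-a1 (0.15, SE 0.11), near-identical copies whose counts are uncertain. The nuclear factors of red cell precursors were at or near 0, with 0 to 4 counts per library for Gata1 and 0 to 16 for Klf1, where Gata2 had 299 to 547, Tal1 1939 to 3158 and Zfpm1 507 to 766. Of 8 megakaryocyte and mast cell markers 3 were tested, 1 higher and 2 lower: Kit (0.23, SE 0.07, adjusted p = 0.217), Itga2b (-0.59, SE 0.26) and Gp1ba (-0.30, SE 0.25), while Cpa3 had 0 to 3 counts and Mcpt4 0. Kit is also a gene of neurons, and it made up most of that list's sum of 74.5 to 95.6 CPM in wild-type and 90.2 to 101 CPM in deletion. The 12 endothelial markers summed to 184 to 222 CPM and 185 to 215 CPM, with 5 higher, 7 lower and none passing (Cdh5 0.23, SE 0.11; Flt1 0.26, SE 0.14; Pecam1 -0.16, SE 0.09). The 6 microglial markers summed to 35.0 to 39.1 CPM in wild-type and 33.9 to 41.5 CPM in deletion, with 3 higher, 3 lower and none passing, and the smallest p was that of Cx3cr1 (0.18, SE 0.13, adjusted p = 0.685). The part of endothelial RNA in the levels of Gata2 and Tal1 was not tested.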

How the data were processed

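Gene counts were analysed for 10 libraries, 5 wild-type and 5 deletion, grouped by their labels. The authors deposited 1 table of raw counts per Entrez gene ID with no normalization. HISAT2, featureCounts and the mm39 build are named in the submitters' processing notes; their versions, the annotation, strand and multi-mapping settings were not stated there, and without strand overlapping genes cannot be told apart. Symbols came from RefSeq (GRCm38.p6) for 30648 of 30935 IDs, and 0 columns stayed without a sample. Libraries of a group differed beyond sampling noise (lowest chi-square per degree of freedom 5.63), so none was taken as a copy of another and all were kept. Deletion 4 stood apart, at 19.4 to 30.9 against the other deletion libraries. Other deletion pairs had 5.63 to 10.1 and wild-type pairs 6.39 to 15.9. Where samples are not stated to come from separate litters, p-values measure the spread between these samples.

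Counts were tested over all genes with edgeR 4.0.16 in R 4.3.3 (filterByExpr, TMM, robust quasi-likelihood F test, two-sided, Benjamini-Hochberg adjusted over 15288 genes, threshold 0.05). The standard error was the log2 fold change divided by the square root of F. CPM values are TMM-scaled, with a prior count of 2 on the log2 scale. The test was tried on simulated counts with known changes, and the outcome of that trial is not reported here. Transcript lengths were those of the longest GENCODE M21 transcript, found for 98.7% of tested genes. Pairs of genes were compared by exact permutation within groups (14400 arrangements). DESeq2 1.42.0 gave no adjusted p for Helt. Length and GC trends were natural splines (4 degrees of freedom for each variable) over genes above a mean log2 CPM of 3 and used as an offset.

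The genes and lists were chosen with earlier results of these data known, so lists are given as counts and medians with no test of their own. Named beside the 10 genes were the 3 genes with the smallest p of each list, and for Gad1 and Gata3 the 3 genes with the most similar levels; other list genes were named for their role, and some genes of the lists are not reported here by name. The replicate numbers 2, 4, 5 and 6 occur in both groups, but same-numbered libraries did not deviate together (correlations of -0.06 to 0.05 over 15288 genes), so the main fit has no block. Alternatives were other scalings, filters and tools, removal of length trends, a replicate block and leaving out each library.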

Additional observations from a re-analysis of the deposited data

Results flagged for a closer look

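Tal2 in wild-type 2 stood at 57.2 CPM, far below the other 4 wild-type libraries (104 to 122 CPM), and the gap to its nearest neighbour took up 0.726 of the group's range, above Dixon's critical value of 0.71 for 5 samples. This was 1 of 20 sets (10 genes in 2 groups), and chance flags about 1 in 20. Wild-type 2 also had the lowest total count, 16246892, and its raw Tal2 count was 930. In the same library Gad1, Gad2, Gata2, Gata3 and Tal1 were at their wild-type maximum. The log2 fold change of Tal2 was -0.08 with this library and -0.23 without it (SE 0.121, edgeR adjusted p = 0.441), and neither passed the test.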

How the results depend on the processing

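None of the 10 GABAergic neuron genes passed under any of the 19 alternatives that were run, and the smallest adjusted p of any gene in any of them was 0.176 (Gad2 without deletion 4, log2 fold change 0.15). Of the 190 values so obtained, 171 kept the direction of the reported one, and 19 did not, for genes whose difference had not passed. With the replicate number as a block, Gata2 and Tal2 had log2 fold changes of 0.02 and 0.10, Gata3 one of 0.25, and no gene of the 15288 passed (0 calls). Tal1 had -0.03 with the length and GC trend removed, and Helt had -0.0017 with RLE factors, -0.01 with upper-quartile factors, -0.0039 with no filter, -0.04 in limma-voom and -0.003 in DESeq2. DESeq2 gave Helt no adjusted p, so it could not pass there. When 1 library was left out, values ran from -0.0028 to 0.06 for Gad1, -0.04 to 0.08 for Tal1, -0.03 to 0.11 for Sox14, 0.07 to 0.22 for Gata3 and -0.23 to 0.13 for Helt; the cause of these changes was not tested. The count of genes called over the whole table, 9, moved to 15 with upper-quartile factors, 69 with no filter, 0 with the length trend removed, 22 with the length and GC trend removed and 235 in DESeq2, and ran from 0 to 357 when 1 library was left out. Precision is set by 5 libraries per group: for Helt, with 61 to 180 counts per library, the interval of the fold change reached from 0.717 to 1.40.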
